A study of Mus musculus with 6 samples.

Results

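The 9 genes described here are transcripts of neutrophil granulocytes: S100a8 and S100a9, which encode the subunits of calprotectin, Mpo, Elane and Prtn3 of the primary granules, and Camp, Ngp, Ltf and Lcn2 of the secondary granules. They were taken by gene symbol, and the set was chosen with earlier results of these data known. The deposited normalized table held 8 of them among its 20162 rows, and the counts of Lcn2 were taken from the deposited raw count table. Of the 9, 7 were among the 16011 genes with enough counts to be tested, and Prtn3 and Lcn2 were not. RNA came from first molar tooth germs of C57BL/6 mice at postnatal day 7, with 3 libraries from wild-type animals (WT) and 3 from Gpr115-/- littermates (Gpr115-KO). Gpr115, listed under its current symbol Adgrf4, is an adhesion G protein-coupled receptor, and the study examined its part in enamel mineralization. The labels do not give which part of the gene was deleted, or how many animals each library represents, and p-values describe only the spread among these libraries.

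Neutrophils store their antimicrobial proteins in granules that are filled one kind after another as the cell matures in the bone marrow. Primary granule genes such as Mpo, Elane and Prtn3 are transcribed at the promyelocyte stage, secondary granule genes such as Ltf, Camp, Ngp and Lcn2 at the myelocyte and metamyelocyte stages, and S100a8 and S100a9 stay abundant in mature cells of the blood. Circulating neutrophils therefore hold little messenger RNA of the primary granule proteins. The transcription factors C/EBP-epsilon, C/EBP-alpha and PU.1 are known regulators of granule genes.

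The promoters are shown because the 9 genes are read here as a group known to share regulators. Motifs were searched on both strands in the 250 bases before the RefSeq start (build GRCm38.p6). The motif GCAAT, part of sites bound by the C/EBP factors, was found in 8 of the 9 windows, all but that of Prtn3, and in 23.1% of 32851 RefSeq promoter windows of the same length. The motif GAGGAA, the core of sites bound by PU.1, was found in 6 windows, all but those of S100a9, Camp and Ngp, and in 23.3% of all windows. Both were present in S100a8, Mpo, Elane, Ltf and Lcn2, and in 5.24% of all windows. The motif AGATAA, of sites bound by the erythroid GATA factors, was found in S100a9 and Ltf and in 9.99% of all windows. These are matches of letters and no measure of binding. In the stretches below, given 5′ to 3′ on the gene's strand, capitals mark either of the first motifs on either strand. Shown are both calprotectin genes, the 3 primary granule genes, whose values differ below, and Ltf, the secondary granule gene with the smallest p. A stretch ends at the RefSeq start or, where GENCODE places an exon before it, 20 bases into that exon. Not every match in the windows is therefore printed. The GCAAT of Mpo, 56 to 52 bases before the RefSeq start, lies past the GENCODE start. The GAGGAA of Ltf, 157 to 152 bases before the RefSeq start, lies ahead of its stretch. The matches of Camp and Lcn2 also lie past the GENCODE start, as does a GAGGAA of S100a8 at 36 to 31 bases. The whole window of Lcn2 lies past its GENCODE start. For S100a8, bases just after the RefSeq start were found in none of its GENCODE transcripts. The stretches lie at chr3:90668878-90668997 (plus strand), chr3:90695722-90695841 (minus strand), chr11:87793534-87793600, chr10:79886147-79886266, chr10:79879514-79879633 and chr9:111019171-111019290 (all plus strand), in the order printed.
S100a8: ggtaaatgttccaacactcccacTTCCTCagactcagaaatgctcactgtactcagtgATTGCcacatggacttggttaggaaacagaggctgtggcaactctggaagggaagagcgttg
S100a9: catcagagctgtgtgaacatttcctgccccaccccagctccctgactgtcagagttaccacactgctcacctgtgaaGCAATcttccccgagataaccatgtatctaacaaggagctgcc
Mpo: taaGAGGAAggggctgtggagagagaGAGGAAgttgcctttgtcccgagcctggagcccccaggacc
Elane: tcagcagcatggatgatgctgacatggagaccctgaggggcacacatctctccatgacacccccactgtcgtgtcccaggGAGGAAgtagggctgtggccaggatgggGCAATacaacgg
Prtn3: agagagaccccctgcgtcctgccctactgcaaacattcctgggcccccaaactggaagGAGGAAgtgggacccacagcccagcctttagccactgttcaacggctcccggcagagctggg
Ltf: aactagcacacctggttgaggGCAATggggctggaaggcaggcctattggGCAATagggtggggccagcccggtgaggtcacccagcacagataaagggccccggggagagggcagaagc

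Library totals ran from 8317302 to 11122821 counts, so that 1 count was worth 0.0904 to 0.114 CPM, which are counts per 1e6 of the library total scaled by TMM. A count of 0 in a library allowed up to 0.271 to 0.341 CPM, the level of 3 counts, and all such limits cover counting error only. Adgrf4 was lower in every Gpr115-KO library (20.6 to 39.1 CPM) than in any WT library (62.3 to 67.3 CPM). Its log2 fold change was −1.18 (SE 0.21, adjusted p = 0.0889, edgeR), and DESeq2 called it with an adjusted p of 0.000459. The summed level of 7 ameloblast markers was 112733 to 145676 CPM in WT, and 96111 to 203024 CPM in Gpr115-KO, where the neutrophil genes had at most 37.9 CPM together. At an adjusted p under 0.05 edgeR called 6 genes higher and 18 lower in the mutant germs, and 7 and 11 with library totals in place of TMM.

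The neutrophil genes were present at low level in both genotypes, and their summed level was higher in the Gpr115-KO germs. Together they had 9.58, 16.1 and 13.2 CPM in WT replicates 1 to 3 and 28.5, 37.9 and 29.9 CPM in Gpr115-KO replicates 1 to 3. These sums rest on 106, 142 and 130 counts in WT, against 251, 356 and 328 in Gpr115-KO. The 2 genotypes did not overlap, and the mean was 12.95 ± 3.26 CPM (SD, n = 3) in WT, against 32.1 ± 5.09 CPM (SD, n = 3) in Gpr115-KO, 2.48 times as high. In bulk tissue, more cells of a type and more RNA per cell cannot be told apart.

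Taken gene by gene, the mean was higher in Gpr115-KO for 8 of the 9, Prtn3 being the exception. Of all tested genes 51.3% had a fitted difference in this direction. For 5 of the 9 (S100a9, Mpo, Camp, Ngp and Ltf) every Gpr115-KO library exceeded every WT library. Of all tested genes 8.55% were separated in this direction, and of the 3614 tested genes within the same span of mean level, 1.47 to 5.04 CPM, 8.91% were. None of the 9 passed an adjusted p under 0.05 in edgeR in either direction, where 0.0375% of all tested genes were called higher and 0.112% lower. At an unadjusted p under 0.05, 6 of the 7 tested genes were higher, against 4.85% of all tested genes. DESeq2 called Mpo alone, with 0.44% of its tested genes called higher, and edgeR without the count filter called Mpo, Camp, S100a9 and S100a8, with 0.463%. S100a8, S100a9, Elane and Camp reached the filter through the Gpr115-KO libraries, since only 1 or 2 of their WT libraries exceeded its 0.998 CPM. The counts over tested genes are for that reason a description.

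**Figure D1:**
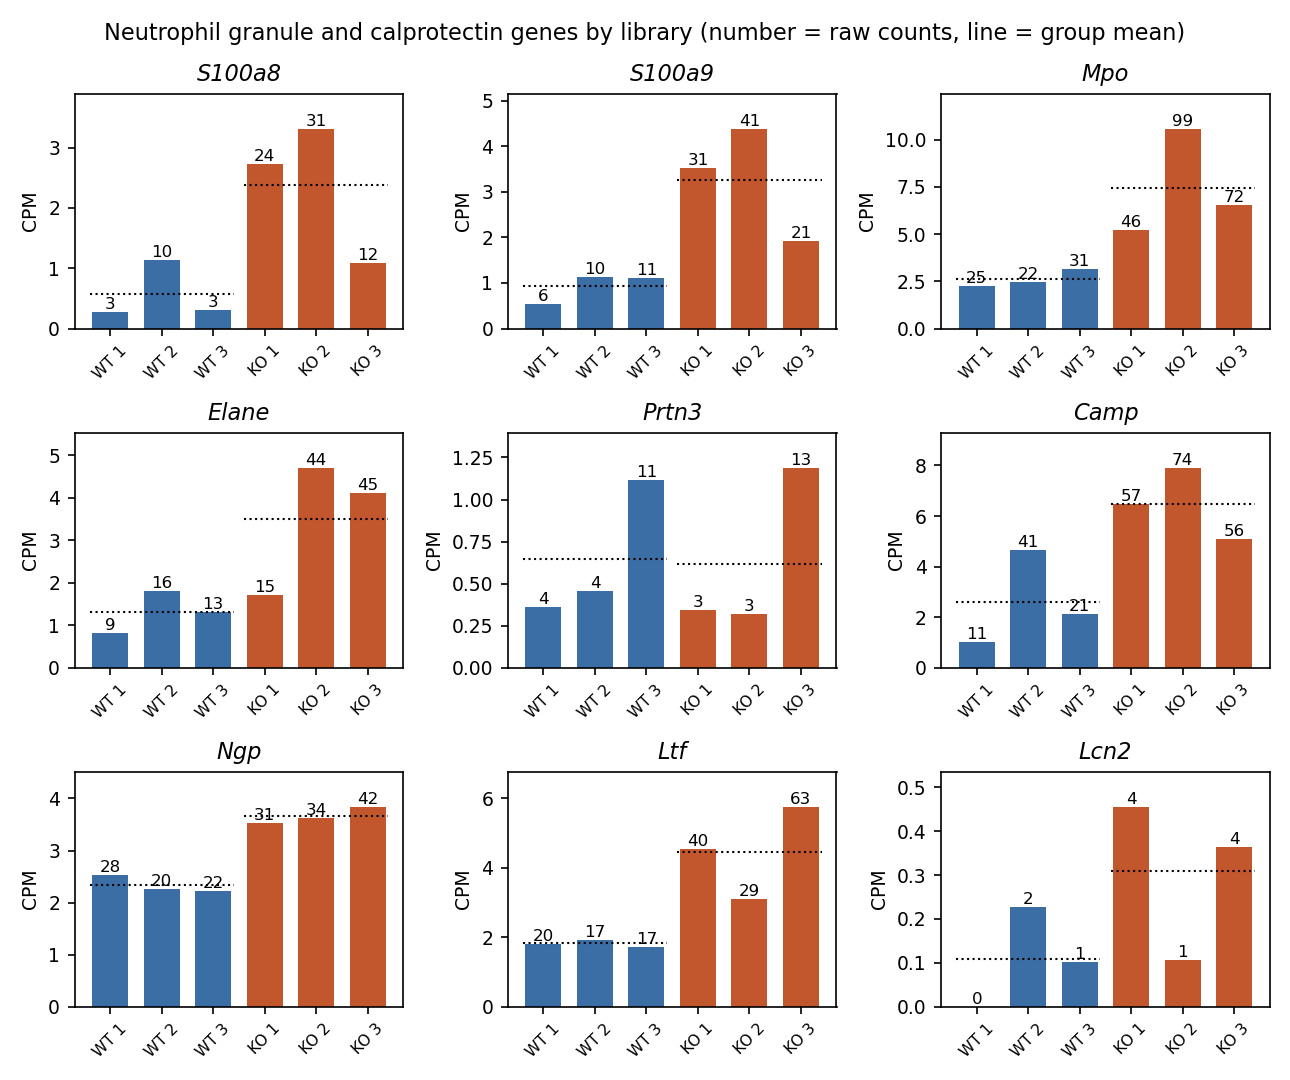
CPM of each of the 9 genes in the 3 WT and 3 Gpr115-KO libraries, 1 panel per gene (WT blue, Gpr115-KO red), with the raw count above each bar and the group mean as a dotted line. The groups separate for S100a9, Mpo, Camp, Ngp and Ltf, overlap for S100a8, Elane and Lcn2, and have nearly the same mean for Prtn3.

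Of the 3 classes calprotectin had the highest ratio of the genotypes' means, although the classes were not tested against each other. S100a8 (ENSMUSG00000056054, GRCm38 chromosome 3, 90668978 to 90670035, plus strand) and S100a9 (ENSMUSG00000056071, chromosome 3, 90692632 to 90695721, minus strand) encode calcium-binding proteins that pair into a zinc- and manganese-binding complex. It is a major cytosolic protein of neutrophils. S100a8 had 3, 10 and 3 counts (0.271, 1.13 and 0.304 CPM) in WT replicates 1 to 3 and 24, 31 and 12 counts (2.73, 3.30 and 1.09 CPM) in Gpr115-KO. WT replicate 2 lay just above Gpr115-KO replicate 3, so the groups overlapped by that pair. The log2 fold change of S100a8 was 2.07 (SE 0.65, adjusted p = 0.268, edgeR), from a mean of 0.570 ± 0.489 to 2.37 ± 1.15 CPM (SD, n = 3). Without WT replicate 2 it was 2.98.

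S100a9 had 6, 10 and 11 counts (0.542, 1.13 and 1.11 CPM) in WT, against 31, 41 and 21 counts (3.52, 4.37 and 1.91 CPM) in Gpr115-KO. All Gpr115-KO libraries were above all WT libraries, and as for S100a8 the second was highest and the third lowest among them. Its log2 fold change was 1.81 (SE 0.48, adjusted p = 0.219, edgeR), from 0.930 ± 0.336 to 3.27 ± 1.25 CPM (SD, n = 3). The summed level of the pair was 0.814 to 2.27 CPM in WT, against 3.01 to 7.67 CPM in Gpr115-KO.

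Among the primary granule genes, Mpo and Elane were higher in Gpr115-KO and Prtn3 had nearly the same mean in both genotypes. Mpo (ENSMUSG00000009350, chromosome 11, 87793581 to 87804413, plus strand) encodes myeloperoxidase, which makes hypochlorous acid. It had 25, 22 and 31 counts (2.26, 2.49 and 3.14 CPM) in WT, against 46, 99 and 72 counts (5.23, 10.6 and 6.56 CPM) in Gpr115-KO. The lowest Gpr115-KO library was above the highest WT library, and replicate 2 stood highest. The log2 fold change of Mpo was 1.50 (SE 0.33, adjusted p = 0.151, edgeR) and the adjusted p was 0.0137 in DESeq2. Mpo shares 512 exonic bases with the antisense gene Gm11505, and because the library kit does not mark strand their reads there cannot be told apart. Gm11505 had 6, 9 and 14 counts in WT, against 10, 31 and 18 in Gpr115-KO.

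Elane (ENSMUSG00000020125, chromosome 10, 79886247 to 79888215, plus strand) encodes neutrophil elastase, a serine protease. It had 9, 16 and 13 counts (0.814, 1.81 and 1.32 CPM) in WT, against 15, 44 and 45 counts (1.70, 4.69 and 4.10 CPM) in Gpr115-KO. Gpr115-KO replicate 1 lay within the WT range, and the other two libraries were above it. The log2 fold change was 1.42 (SE 0.48, adjusted p = 0.289, edgeR).

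Prtn3 (ENSMUSG00000057729, chromosome 10, 79874476 to 79883174, plus strand) encodes proteinase 3, a serine protease related to elastase, and lies beside Elane on the same strand. It had 4, 4 and 11 counts (0.362, 0.453 and 1.11 CPM) in WT, against 3, 3 and 13 counts (0.341, 0.320 and 1.19 CPM) in Gpr115-KO. The third library was highest in both groups. The counts pooled over the libraries of each genotype and divided by their summed library sizes had a ratio of 1.02 (Gpr115-KO over WT, 95% interval 0.511 to 2.04, counting error only). The means of the libraries were 0.643 CPM in WT, against 0.615 CPM in Gpr115-KO, and an exact permutation test, two-sided, gave p = 0.8. In Gpr115-KO replicate 2, the library with the highest Mpo and Elane, Prtn3 had 0.0682 counts per count of Elane (95% interval 0.0135 to 0.213). The ratio was 0.2 and 0.289 in Gpr115-KO replicates 1 and 3 and 0.444, 0.25 and 0.846 in the WT libraries, so the genotypes overlapped. Prtn3 shares 159 exonic bases with Plppr3 on the opposite strand, which had 174 to 287 counts in WT, against 159 to 288 in Gpr115-KO. The part of Plppr3 reads in the Prtn3 counts was not tested.

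All secondary granule genes had higher means in Gpr115-KO, Lcn2 only at the limit of detection. Camp (ENSMUSG00000038357, chromosome 9, 109847379 to 109849617, minus strand) encodes the precursor of the antimicrobial peptide CRAMP, the mouse cathelicidin. It had 11, 41 and 21 counts (0.995, 4.65 and 2.13 CPM) in WT, against 57, 74 and 56 counts (6.48, 7.89 and 5.11 CPM) in Gpr115-KO. The groups did not overlap, although WT replicate 2 came near the lowest Gpr115-KO library. The log2 fold change of Camp was 1.34 (SE 0.47, adjusted p = 0.299, edgeR), and 2.05 without WT replicate 2.

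Ngp (ENSMUSG00000032484, chromosome 9, 110419747 to 110423012, plus strand) encodes neutrophilic granule protein, a cathelin-like protein. Its counts were 28, 20 and 22 (2.53, 2.27 and 2.23 CPM) in WT, against 31, 34 and 42 (3.52, 3.62 and 3.83 CPM) in Gpr115-KO. Libraries of a genotype lay close together and the genotypes did not overlap. The log2 fold change of Ngp, 0.64 (SE 0.31, adjusted p = 0.430, edgeR), was the smallest among the tested genes of the set. Ltf (ENSMUSG00000032496, chromosome 9, 111019271 to 111042767, plus strand) encodes lactoferrin, an iron-binding protein. It had 20, 17 and 17 counts (1.81, 1.93 and 1.72 CPM) in WT, against 40, 29 and 63 counts (4.54, 3.09 and 5.74 CPM) in Gpr115-KO. The groups did not overlap and the third Gpr115-KO library was highest. The log2 fold change of Ltf was 1.29 (SE 0.35, adjusted p = 0.231, edgeR).

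Lcn2 (ENSMUSG00000026822, chromosome 2, 32384633 to 32388252, minus strand) encodes lipocalin 2, which binds iron-carrying siderophores. It had 0, 2 and 1 counts in WT, against 4, 1 and 4 in Gpr115-KO, or 3 against 9 in sum. The depth-scaled ratio of these pooled counts was 3.06 (95% interval 0.764 to 17.6, counting error only) and the exact permutation p was 0.2 (two-sided), so no difference was detectable at this depth. With 3 libraries against 3 an exact permutation test cannot go below p = 0.1, the value it gave each of the 5 genes whose groups did not overlap.

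**Figure D2:**
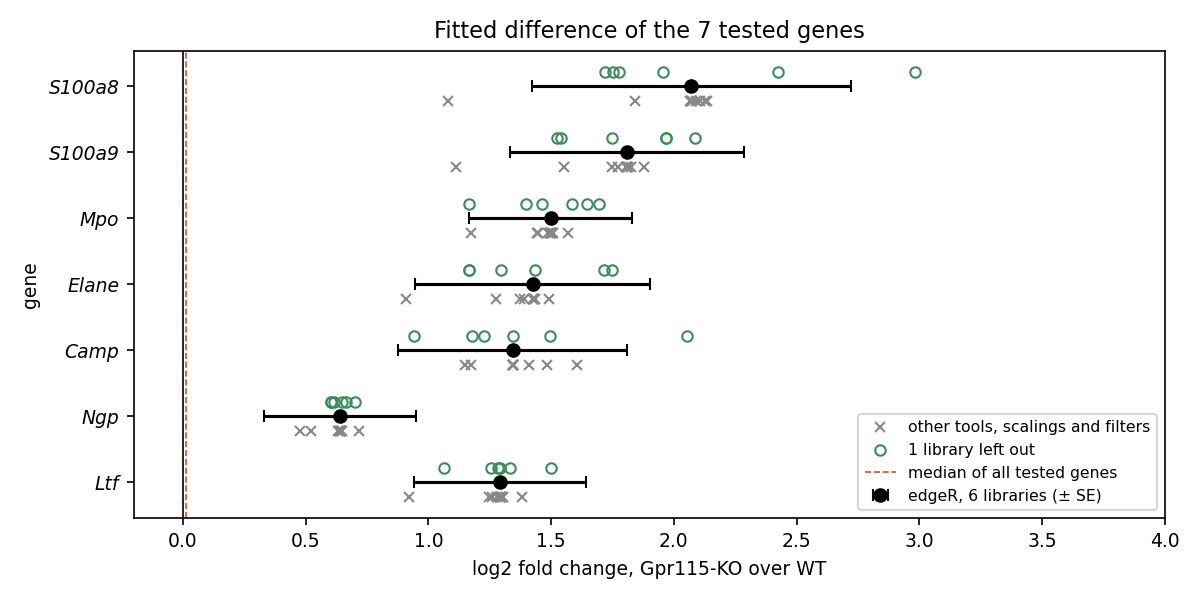
Fitted log2 fold change (Gpr115-KO over WT) of the 7 tested genes from edgeR with its standard error (black), with 1 library left out (green circles) and with other tools, scalings and filters (grey crosses). All lie above 0, from 0.64 for Ngp to 2.07 for S100a8 in the fit of 6 libraries, and the dashed line marks the median of all tested genes, 0.01.

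Divided by exonic length, levels can be compared between the genes. In WT the mean level per kilobase was highest for Camp (3.42 CPM per kb), then Ngp (1.92), S100a9 (1.78), Elane (1.34), S100a8 (0.821), Mpo (0.769), Ltf (0.527), Prtn3 (0.371) and Lcn2 (0.0417). In Gpr115-KO the same scale gave Camp 8.56, S100a9 6.26, Elane 3.56, S100a8 3.42, Ngp 2.99, Mpo 2.18, Ltf 1.29, Prtn3 0.355 and Lcn2 0.118 CPM per kb. In WT the libraries of neighbours in this order overlapped except between Mpo and Ltf and between Prtn3 and Lcn2. In Gpr115-KO they overlapped except between Ltf and Prtn3 and between Prtn3 and Lcn2.

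The proportions of the granule classes varied between libraries of the same genotype. Summed primary granule genes ran from 3.44 to 5.57 CPM in WT, against 7.27 to 15.6 CPM in Gpr115-KO. Summed secondary granule genes were 5.33 to 9.07 CPM in WT, whereas they lay between 14.7 and 15.04 CPM in all 3 Gpr115-KO libraries. The Gpr115-KO mean was 3.76 times the WT mean for calprotectin, 2.52 times for the primary and 2.17 times for the secondary class. Counts of primary genes per count of secondary genes were 0.644, 0.525 and 0.902 in WT, against 0.485, 1.06 and 0.788 in Gpr115-KO, so the genotypes overlapped. Within Gpr115-KO the ratio of replicate 1 (95% interval 0.354 to 0.658, counting error only) was below that of replicate 2 (0.833 to 1.345). Calprotectin counts per secondary count were 0.153, 0.25 and 0.23 in WT, against 0.417, 0.522 and 0.2 in Gpr115-KO, high in 2 of the 3 Gpr115-KO libraries.

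The other genes of the neutrophil lineage, 42 on 3 lists of granule and receptor genes, were mostly at a few counts or shared with other cells. Of these, 16 were tested and 0 were called by edgeR. At an unadjusted p under 0.05, 1 of the 16 was higher, against 4.85% of all tested genes. That gene was Lyz2, the lysozyme gene of neutrophils and macrophages, with 24.3, 33.2 and 31.1 CPM in WT, against 37.6, 43.2 and 42.8 CPM in Gpr115-KO (log2 fold change 0.48, SE 0.17, adjusted p = 0.296, edgeR). Its groups did not overlap, as was so in this direction for 8.55% of all tested genes. Of 8 further primary granule genes 3 were tested, each with a fitted difference above 0 (median 0.15 on the log2 scale). They include Cd63, a granule membrane tetraspanin found in many cells (0.15, SE 0.19), and Srgn, the granule proteoglycan serglycin (0.22, SE 0.30). The remaining one, Prss57, had a mean of 9.47 CPM in WT, against 9.58 CPM in Gpr115-KO (0.02, SE 0.24). Of 16 further secondary and tertiary granule genes 9 were tested, 6 above 0 and 3 below, with a median of 0.48. One was Mmp9, gelatinase B, also made by osteoclasts (0.61, SE 0.32), and among those below 0 was Pglyrp1 (−0.73, SE 0.48). Of 18 receptor and cytosolic genes of mature neutrophils 4 were tested, 2 in each direction with a median of 0.05, with Fcgr3 at 0.36 (SE 0.26) and Ptafr at −0.37 (SE 0.27). The median of all tested genes was 0.01.

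The 26 genes of these lists below the count filter were examined as counts. Il1b and Clec4e had 0 counts in all libraries, 20 had a higher mean in Gpr115-KO and 4 a lower one. Of the 21 with at least 5 counts in all, 17 had a higher mean in Gpr115-KO. Among all 7494 genes below the filter with as many counts 49.8% did. For 6 of the 21 every Gpr115-KO library was above every WT library, against 5.44% of the 7494. The 6 were Ctsg, Chil3, Olfm4, Ltb4r1, Csf3r and Stfa2l1. Ctsg, Chil3 and Csf3r reached 5 counts only through the Gpr115-KO libraries, so these shares are a description. Ctsg, which encodes the primary granule protease cathepsin G, had 0 counts in every WT library and 2, 2 and 4 in Gpr115-KO. Olfm4, of a secondary granule subset, had 4, 4 and 2 counts in WT, against 18, 7 and 11 in Gpr115-KO. Csf3r, the receptor of granulocyte colony-stimulating factor, had 2, 1 and 1 counts in WT, against 5, 8 and 9 in Gpr115-KO. The 26 together had 7.32, 6.91 and 5.67 CPM in WT, against 12.7, 11.8 and 9.21 CPM in Gpr115-KO, without overlap.

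**Figure D3:**
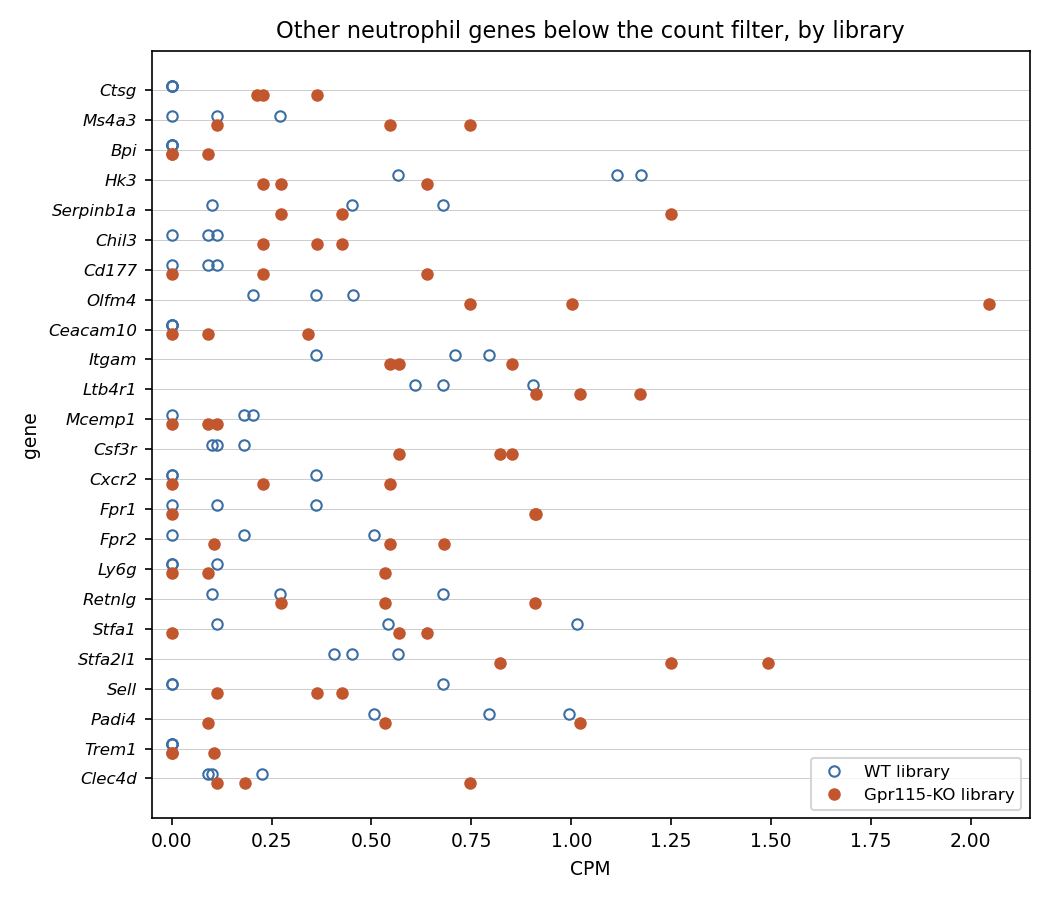
CPM in each WT (open) and Gpr115-KO (filled) library of the 24 neutrophil genes below the count filter that had any count. Ctsg, Chil3, Olfm4, Ltb4r1, Csf3r and Stfa2l1 separate with Gpr115-KO higher, while Hk3, Stfa1 and Padi4 overlap.

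None of the regulators, attractants and receptors of the pathway was called by edgeR or by DESeq2. Of 9 myeloid transcription factors 5 were tested and 0 called by edgeR, with 1 lower at an unadjusted p under 0.05 (7.48% of all tested genes were), 1 above 0 and 4 below (median log2 fold change −0.28). Runx1, also active in skeletal and epithelial tissue, had 252, 275 and 285 CPM in WT, against 234, 184 and 191 CPM in Gpr115-KO (−0.42, SE 0.16, adjusted p = 0.345, edgeR), and Spi1, the gene of PU.1, was at −0.28 (SE 0.40). Of 12 neutrophil attractants and growth factors only Cxcl12 was tested (0.32, SE 0.29), and Cxcl1, Cxcl2, Csf3, Csf2 and Il17a had 0 counts in every library. Of 10 genes for receptors of calprotectin, lipocalin and lactoferrin 9 were tested, 5 above 0 and 4 below, with 0 called and 0 at an unadjusted p under 0.05. Cd36 was at 0.47 (SE 0.25) and Bsg at 0.30 (SE 0.19). Of 14 other genes with an S100 symbol 11 were tested, 10 above 0 and 1 below (median 0.43). The 1 below was S100pbp (−0.26, SE 0.24), named for a protein that binds S100P and not itself an S100 gene. Of the 11 tested, 0 were called and 1 was higher at an unadjusted p under 0.05, as were 4.85% of all tested genes. S100a16 was at 0.53 (SE 0.18, adjusted p = 0.290, edgeR) and S100a10 at 0.63 (SE 0.31).

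Markers of other blood cells were set beside the neutrophil genes. Of 10 erythroid genes 9 had a row in the tables (Ahsp did not) and none was at 0. Of these 7 were tested, each fitted above 0 (median 1.22 on the log2 scale), as were 51.3% of all tested genes. At an unadjusted p under 0.05, 6 were higher, against 4.85% of all tested genes. Higher without overlap were 4, against 8.55%. By edgeR 0 were called, while DESeq2 called Hbb-bs, Hbb-bt and Slc4a1, with 0.44% of its tested genes called higher. The summed level of the erythroid genes was 140 to 161 CPM in WT, against 308, 397 and 161 CPM in Gpr115-KO replicates 1 to 3. Gpr115-KO replicate 3 was thus at the WT level for erythroid genes, while its 9 neutrophil genes, at 29.9 CPM, were above every WT library. Of 11 monocyte and macrophage genes 10 were tested, 9 above 0 (median 0.11), summing to 126 to 136 CPM in WT, against 121 to 182 CPM in Gpr115-KO. Of the 10 tested, 2 were higher without overlap, as were 8.55% of all tested genes. C1qa was 6.51 to 7.60 CPM in WT, against 10.5 to 13.96 CPM in Gpr115-KO. Ccr2 was 1.54 to 2.53 CPM in WT, against 2.66 to 3.18 CPM in Gpr115-KO. The groups of C1qb (16.9 to 25.6 CPM in WT, against 16.9 to 31.6 CPM in Gpr115-KO) overlapped. So did those of C1qc (9.97 to 12.8 CPM in WT, against 8.18 to 15.2 CPM in Gpr115-KO). The part of these cells in the neutrophil gene difference was not tested.

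The remaining lists gave the following sums, WT before Gpr115-KO. B lineage genes, Pax5 being at 0, had 22.2 to 29.8 and 20.5 to 27.5 CPM, and T and natural killer genes 2.74 to 4.07 and 4.80 to 5.20 CPM. Megakaryocyte genes, Gp9 at 0, had 28.1 to 29.8 and 29.1 to 38.6 CPM, and 8 osteoclast genes 49.2 to 58.0 and 61.0 to 85.0 CPM. Endothelial genes had 58.6 to 68.4 and 47.0 to 73.1 CPM. The sums of the T and natural killer and the osteoclast genes were thus higher in every Gpr115-KO library, and those of the endothelial and B lineage genes overlapped. Of the genes themselves, 1 of 4 tested osteoclast genes and 0 of 2 tested T and natural killer genes were higher without overlap. Of all tested genes 8.55% were. Among the untested T and natural killer genes Cd3g was higher without overlap, and the others overlapped. Cd3g had 0.304 to 0.633 CPM in WT, against 0.746 to 1.73 CPM in Gpr115-KO. Among the untested osteoclast genes, all at 15 counts or fewer, Oscar was higher and Calcr lower without overlap. Of all genes below the filter with at least 5 counts, 5.44% were higher without overlap. Calcr had 0.304 to 0.362 CPM in WT, against 0 to 0.213 CPM in Gpr115-KO. The means of Ocstamp and Dcstamp were also lower in Gpr115-KO. The part of T, natural killer and osteoclast cells in the neutrophil gene difference was not tested either. Skeletal muscle genes stood at 199 CPM in Gpr115-KO replicate 2, while the other five libraries had 19.5 to 53.3 CPM. The keratinizing epithelium gene Krt4, a marker of oral mucosa, was 47.4, 2.15 and 33.6 CPM in WT, against 113, 2.98 and 3.56 CPM in Gpr115-KO, so its level varied widely within both genotypes. The list's sum was 991 to 1202 and 627 to 1547 CPM, and that of 6 odontoblast genes 42778 to 92390 and 47445 to 79918 CPM.

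**Figure D4:**
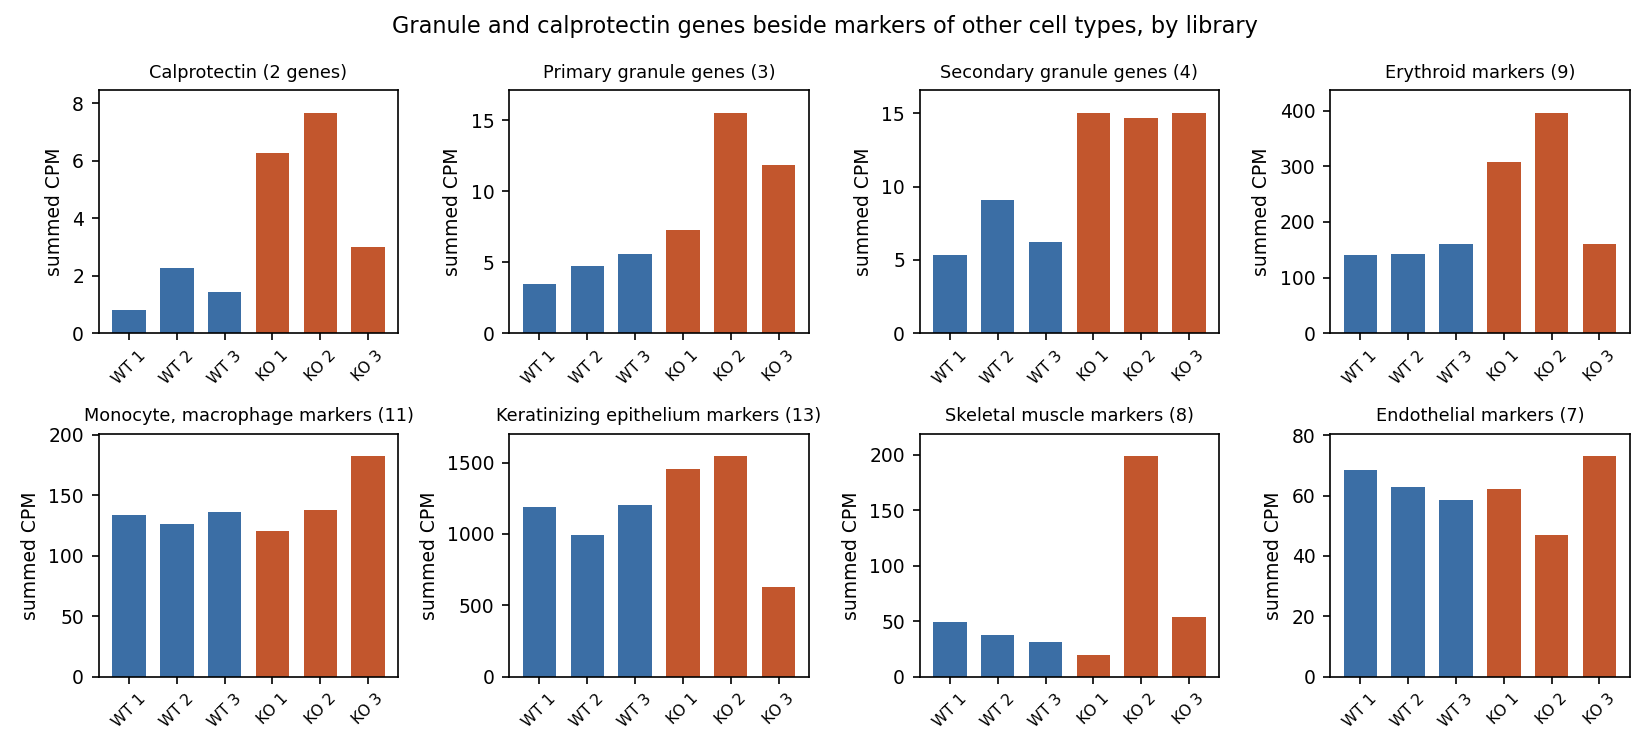
Summed CPM per library of the calprotectin, primary and secondary granule genes beside those of erythroid, monocyte and macrophage, keratinizing epithelium, skeletal muscle and endothelial markers. The granule sums separate by genotype, whereas Gpr115-KO replicate 3 is at the WT level for erythroid genes and Gpr115-KO replicate 2 stands apart for muscle genes.

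The genes whose pattern over the 6 libraries was most like the mean profile of the 7 tested neutrophil genes were sought among 11587 genes with a mean log2 CPM of at least 1. The 12 nearest by Pearson correlation were Zbed3 (0.993), Zfp688 (0.991), Qsox2 (0.988), Hdac2 (0.986), Kremen1 (0.985), Cdkn2c (0.979), Mmp24 (0.978), Mrpl9 (0.977), Sptssa (0.977), Hes1 (0.976), Snrpa1 (0.976) and Swsap1 (0.976). None is on the neutrophil lists, and the points share libraries and depth. Hes1, a Notch target, had 2.17 to 3.85 CPM in WT, against 7.48 to 11.4 CPM in Gpr115-KO (log2 fold change 1.51, SE 0.31, adjusted p = 0.103, edgeR). Among the listed neutrophil genes that reached this level Lyz2 was the nearest, at rank 62 (0.948). Genes below the count filter, among them Ctsg, Chil3, Olfm4, Ltb4r1, Csf3r and Stfa2l1, could not be ranked. C1qa was at rank 60 (0.949), whereas C1qb and C1qc were at ranks 2688 (0.503) and 5135 (0.082).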

How the data were processed

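The labels' protocols give TRIzol extraction, Nextera XT libraries, which do not mark strand, and paired reads on a HiSeq1500. The submitters' processing notes list the aligner STAR 2.5.2a, beside limma, edgeR and DESeq2, with the build GRCm38 (mm10). How reads were counted, and on which annotation, was not given in the sources used here. Raw counts were deposited for 48709 gene rows, and 15 transgene rows with at most 8 counts in a library were left out. The deposited normalized signal is CPM scaled by TMM. It gave whole reads for 100% of values (tolerance 0.01), all equal to the raw counts, and edgeR on those reads made 6 higher and 18 lower calls.

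The test was that of edgeR 4.0.16 (R 4.3.3, filterByExpr with minimum count 10 and minimum total 15, TMM, robust quasi-likelihood F test, genotype only, two-sided, Benjamini-Hochberg over 16011 genes). The biological coefficient of variation was 23.2%. The fit was tested on simulated data. Intervals are 95%, and a floor is 3 counts. Lengths, positions and overlaps are from GENCODE vM21, and promoters from RefSeq. All 9 genes, Adgrf4, of each other list the called genes or, with none called, the 2 of smallest p, defining markers and the 12 genes most alike were named. C1qa, Ccr2, Krt4, Prss57, Pglyrp1, S100pbp and the genes below the filter whose groups did not overlap were singled out after their values were seen. The members and lists were chosen with earlier results of these data known. Libraries of a group differed by 16.4 to 68.0 chi-square per degree of freedom. The alternatives were DESeq2 1.42.0, limma 3.58.1, other scalings and filters, a length offset, the replicate block and each library left out. Transcripts of the 9 genes were compared by blastn 2.17.0 at 95% identity over at least 150 nt, and matched only the overlapping Gm11505 and Plppr3.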

Additional observations from a re-analysis of the deposited data

How the results depend on the processing

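Over 17 alternatives, 354 values of 21 named genes were recomputed. Of these, 343 kept their direction and side of the threshold. None of the 21 genes was called in the main test, so no call could be lost. Of the values, 9 became called, 4 of them for Adgrf4: with no count filter, with DESeq2, with the replicate block and without Gpr115-KO replicate 1. Another 2 reversed: Cd63 and Cxcl12 without Gpr115-KO replicate 3 (−0.023 and −0.021, with 0.25 and 0.62 as their highest values when a library was left out). The cause was not tested. The log2 fold changes of the 7 tested neutrophil genes stayed above 0 under every alternative that gave a value. The filter of 10 counts in every library gave none for S100a8, S100a9 and Elane. S100a8 ranged from 1.08 to 2.98, S100a9 from 1.11 to 2.09 and Camp from 0.94 to 2.05. The lowest values of S100a8 and S100a9 came from adding 1 to the deposited values before taking logs, which draws low genes toward 0. Genes of the set called higher, 0 in the main test, numbered 4 with no count filter and 1 with DESeq2, and 0 with each library left out in turn. Over all genes, 6 were called higher in the main test, 135 with no count filter, 65 with DESeq2 and 5 to 10 with a library left out (10 without WT replicate 2). The lower calls, 18, became 11 with library totals alone, 365 with no count filter, 184 with DESeq2 and 7 to 39 with a library left out. They numbered 9 without WT replicate 1, 7 without WT replicate 2, 12 without Gpr115-KO replicate 2 or 3 and 39 without Gpr115-KO replicate 1.

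With the replicate block there were 18 higher and 54 lower calls and 0 among the neutrophil genes. The numbers are shared only in the labels: deviations of same-numbered libraries correlated at 0.27, 0.03 and −0.07, and of the same-numbered pairs only that of replicate 1 correlated best with each other.

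Depth and the number of libraries both limit these genes. None exceeded 99 counts in a library, Prtn3 and Lcn2 stayed too low for the main test, and 3 libraries a group allow no exact permutation p below 0.1.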

Other observations

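Prg2 and Epx, genes of the eosinophil granule proteins major basic protein and eosinophil peroxidase, had fitted differences of opposite sign. Prg2 had 1.27, 1.81 and 0.405 CPM in WT replicates 1 to 3, against 5.79, 3.30 and 2.37 CPM in Gpr115-KO, without overlap (log2 fold change 1.71, SE 0.53, adjusted p = 0.268, edgeR). Epx had 5.24, 6.46 and 9.63 CPM in WT, against 8.29, 3.94 and 4.01 CPM in Gpr115-KO (−0.40, SE 0.36, adjusted p = 0.689, edgeR), and its groups overlapped. The difference between the genes was not tested. Of the 8 mast cell, basophil and eosinophil genes 3 were tested and 2 were at 0 in every library, and their summed level was 8.68 to 14.998 CPM in WT, against 8.53 to 16.5 CPM in Gpr115-KO.

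Ctsk, the osteoclast protease cathepsin K, had 31.1, 27.0 and 21.3 CPM in WT, against 45.6, 43.2 and 36.6 CPM in Gpr115-KO, without overlap (log2 fold change 0.66, SE 0.18, adjusted p = 0.233, edgeR). Slc4a1, the band 3 protein of red cells, had 1.99, 2.27 and 2.63 CPM in WT, against 7.95, 7.67 and 3.56 CPM in Gpr115-KO (1.47, SE 0.36, adjusted p = 0.196, edgeR), and also did not overlap. All were chosen after their values were seen.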
